A study of Mus musculus with 99 samples.

Results

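Heat shock proteins and DNAJ co-chaperones fold, refold and sort other proteins. The members described here were the 73 symbols, out of 55291 in the count table, that begin with Hspa, Hspb, Hspd, Hspe, Hsph, Hsp90 or Dnaj. Dnajc5 and Dnajc5b, pseudogene symbols and symbols of opposite-strand transcripts were left out. The members comprised 43 Dnaj genes and 30 genes with an Hsp name, and they were chosen by symbol, without any measured value. Hspbap1, Hspbp1 and Hspb11 are included by name only, since the proteins are not small heat shock proteins themselves.

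Read counts came from 99 single hair cells picked by hand from cochleae of C57BL/6 mice. Outer hair cells (OHCs) boost the vibration of the cochlea, and inner hair cells (IHCs) excite the auditory nerve fibres. The control group consisted of 32 wild-type OHCs of postnatal day 30, with the genotype Slc26a5-CreER/+; Ai9/+. The other group consisted of 67 converted IHCs (cIHCs) of postnatal day 42, with the genotype Slc26a5-CreER/+; Rosa26Tbx2/+, which are OHCs that express the transcription factor Tbx2 ectopically. Mice of both groups carried the inducible Cre driven from Slc26a5, the gene of the OHC motor protein prestin, and every picked cell carried tdTomato; the agent and time of induction were not given in the sources used here. Age and genotype therefore differ together. The mix of cells with male (Y-linked) and female (Xist) reads, given below, differs along with them, and their parts cannot be told apart. Animals are not named in the labels, and each group therefore counts as 1 sample, no test was made across cells, and the intervals of levels and ratios below cover counting error only. Intervals and limits for shares of cells treat the cells as independent draws. They leave out differences between animals and may be too narrow.

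Hsp70 proteins hold unfolded stretches of a client protein in a cycle driven by ATP. J proteins, the DNAJA, DNAJB and DNAJC families, bring clients to Hsp70 and start its ATP hydrolysis, and Hsp110 proteins and other exchange factors reset it. Hsp90 proteins take over clients that are partly folded, such as kinases and receptors, and small heat shock proteins hold damaged proteins without ATP. In the cytosol, heat shock factor 1 (HSF1) induces many of these genes when proteins misfold. In the endoplasmic reticulum (ER), the unfolded protein response does the same for the ER chaperones. Hair cells are not replaced in adult mammals, and in the cochlea heat shock protein induction is best known from studies of drugs and noise that kill hair cells.

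Between 4677682 and 13792672 reads were counted per cell. A median of 6068.5 genes had reads in an OHC and 8546 in a cIHC, so shares of cells with reads can differ with the number of genes detected: over 1303 genes with matched pooled levels in the groups, reads were found on average in 49.97% of OHCs and 71.0% of cIHCs. All 7 OHC markers checked were at least 2-fold lower in cIHCs and all 7 IHC markers at least 2-fold higher, while of 5 genes shared by both kinds of hair cell, Pou4f3 and Gfi1 were lower. Markers of other cells summed to little: 41 CPM (counts scaled to a common library total) in OHCs and 22.8 CPM in cIHCs for 8 supporting cell genes (0 to 968 CPM and 0 to 899 CPM in single cells), and 14.3 and 8.19 CPM for 5 glial genes (up to 174 and 119 CPM). The 8 blood and macrophage genes summed to 4.71 and 53.6 CPM (up to 67.0 and 337 CPM), of which C1qb gave 48.2 CPM in cIHCs while C1qa was at 0 in both groups. Slc1a3 and C1qb were at 0 in OHCs, and Epyc and Pmp22 at 0 in cIHCs. The 7 early genes that tissue digestion induces summed to 1034 CPM in OHCs (0.467 to 5376 CPM in single cells) and 1862 CPM in cIHCs (240 to 5867 CPM); Atf3 (0.00826 and 133 CPM), Egr1 (19.4 and 376 CPM), Fos and Junb were past 2-fold higher in cIHCs, Fosb past 2-fold lower, and the median log2 ratio of the 7 was 2.26. Y-linked reads of at least 10 CPM, with Xist under 10 CPM, were found in 24 OHCs and 12 cIHCs. Xist reads of at least 10 CPM were found in 4 OHCs and 55 cIHCs, whatever their Y-linked reads. The 12 cIHCs with Y-linked reads were those numbered 1 to 12 in the titles. The part of these markers, of the early genes and of whatever the 12 cells share in the differences below was not tested, and members whose ratio lost its call or turned within a set of cells are named below.

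Chaperone genes took a like share of all reads in the groups. The 73 members summed to 14801 CPM (1.48% of reads) in OHCs and to 16662 CPM (1.67%) in cIHCs. In single cells the sum ran from 11009 through a median of 14303 to 18808 CPM in OHCs and from 11425 through 16378 to 23103 CPM in cIHCs. The groups overlapped over most of that range. Hspa8, Hsp90aa1 and Hsp90ab1 together made up 52.5% of the members' reads in OHCs and 52.6% in cIHCs, although the order among the 3 differed.

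Of the 73 members, 56 reached 10 CPM in 1 or both groups, counted over the summed reads of each group. Among these 56, 14 (25.0%) were at least 2-fold higher in cIHCs, against 26.3% of all 10041 genes at that level, and 3 (5.36%) were at least 2-fold lower, against 14.3% of all genes. The share of members that were higher thus lay near that of all genes. The 14 were Dnajb9, Dnajb13, Dnajc7, Dnajc9, Dnajc12, Dnajc13, Dnajc24, Dnajc25, Dnajc27, Hspa12a, Hspa13, Hspb6, Hspbap1 and Hsph1, and the 3 were Dnajc6, Dnajc21 and Dnajc28. Most were scarce: at a minimum of 50 CPM, 5 of 33 members (15.2%) were higher and 1 (3.03%) was lower, against 20.5% and 12.2% of all 4839 genes. With no minimum beyond 3 counts, 17 of 67 members were higher and 6 were lower, against 42.0% and 18.8% of all 23306 genes. Within cells with Y-linked reads, Dnajc7 and Hspbap1 were under 2-fold. Within cells with Xist reads, of which 4 are OHCs, Dnajb9, Dnajc9 and Dnajc13 were under 2-fold, and Dnajc24, Dnajc25 and Dnajc28 had the opposite sign. Of all 56 members, 11 had the opposite sign within cells with Y-linked reads and 17 within cells with Xist reads. The 11 were Dnajb11, Dnajc3, Dnajc4, Dnajc10, Dnajc11, Dnajc14, Dnajc19, Hspa1b, Hspa4, Hspa8 and Hspe1. The 17 were Dnaja1, Dnaja2, Dnaja3, Dnaja4, Dnajc1, Dnajc10, Dnajc18, Dnajc24, Dnajc25, Dnajc28, Hspa1b, Hspa4, Hspa4l, Hspa5, Hspa9, Hspb11 and Hspd1. The median log2 ratio, cIHC over OHC, was 0.48 for the 56 members (quartiles -0.17 and 0.97) and 0.25 for all genes (quartiles -0.48 and 1.05). Scaling to a trimmed mean of ratios (TMM) or a median of ratios lowered every ratio by 0.19 or 0.20, so a ratio near 0.25 is that of a middling gene. The number of members above 0 was 37 of 56 (66.1%, against 59.03% of all genes) and became 36 with either scaling.

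**Figure D1:**
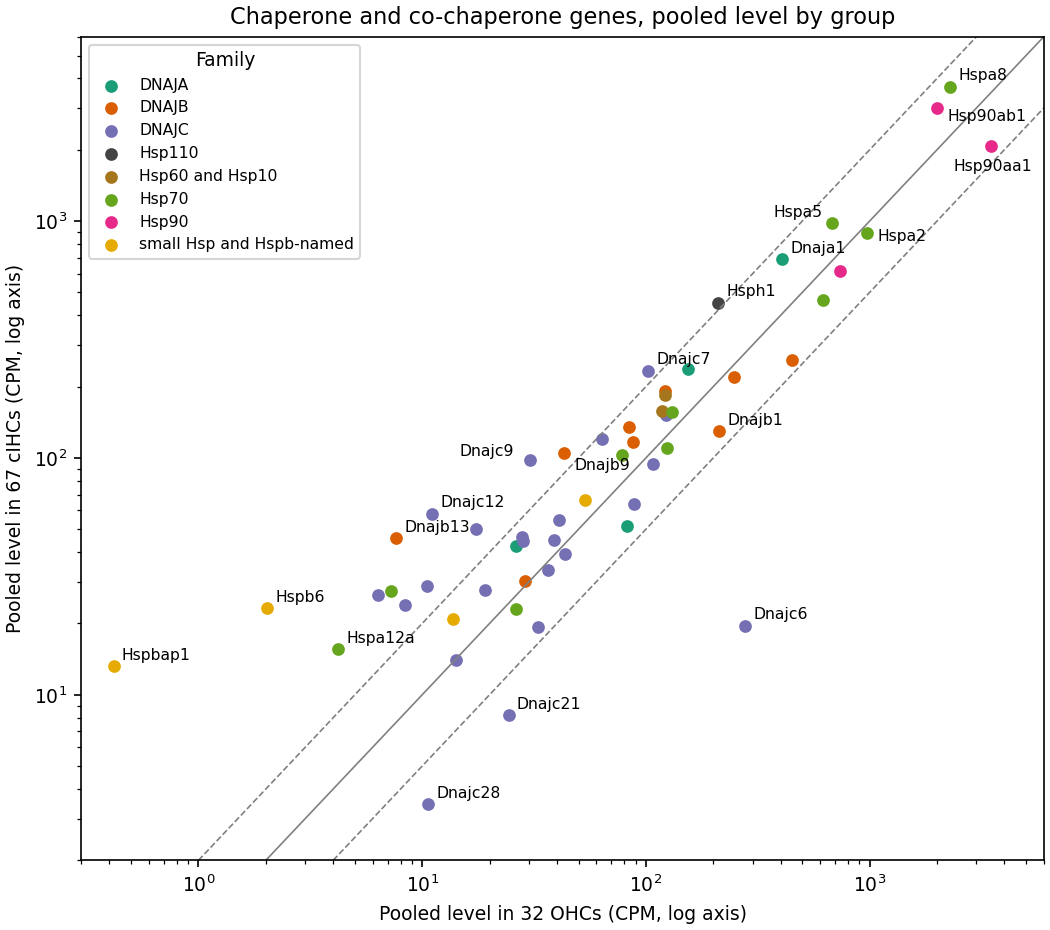
Level of the 56 members that reached 10 CPM in 1 or both groups, summed over the 32 OHCs (horizontal, CPM, log axis) and the 67 cIHCs (vertical, CPM, log axis), coloured by family. The solid line marks equal levels and the dashed lines a 2-fold difference; the 20 members with at least 100 CPM in both groups lie between the dashed lines, other than Hsph1 and Dnajc7.

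Per kilobase of exon, which allows levels of different genes to be compared, the order of the most abundant members was much the same in both groups. In OHCs it began with Hsp90aa1 (883 CPM per kb), Hsp90ab1 (667), Hspa8 (533) and Hspa2 (367). In cIHCs it began with Hsp90ab1 (999.4 CPM per kb), Hspa8 (858), Hsp90aa1 (528) and Hspa2 (338). Hsp90b1 and Hspa5, the ER chaperones of the Hsp90 and Hsp70 families, held the next places in both, at 182 and 160 CPM per kb in OHCs and at 152 and 231 CPM per kb in cIHCs. Hspe1, Dnajb11, Dnaja2 and Dnaja1 completed the first 10 by mean level. Hspa2, an Hsp70 best known for its role in spermatogenesis, thus had the rank of 4 among all members in either group.

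Hsp90aa1 encodes the cytosolic Hsp90 that stress induces, and Hsp90ab1 the constitutive one. Hsp90aa1 was the member with the most reads in OHCs, at 3471 CPM pooled (95% Poisson interval 3464 to 3479), against 2076 CPM (2072 to 2080) in cIHCs. Its level ran from 1641 through a median of 3189 to 5507 CPM in single OHCs, and from 894 through 1968 to 4314 CPM in single cIHCs. The ranges overlapped, but in only 11.4% of the 2144 pairs of 1 cIHC and 1 OHC was the cIHC higher; 50% would mean no shift. The log2 ratio was -0.74 (exact binomial interval -0.75 to -0.74), and it stayed below 0 within the cells with Y-linked reads (-0.73) and within those with Xist reads (-0.38). Hsp90aa1 shares 47.5% of its 50-base words with other genes in the annotation, most with the pseudogene Gm12346, whose row held 17.2 CPM in OHCs and 12.2 CPM in cIHCs; with these reads added the ratio was again -0.74.

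Hsp90ab1 went the other way. It stood at 2001 CPM in OHCs and 2997 CPM in cIHCs (log2 ratio 0.58), with single cells from 250 through 2002 to 3684 CPM in OHCs and from 1075 through 3024 to 5485 CPM in cIHCs. The cIHC was higher in 80.6% of pairs. Within cells with Y-linked reads the log2 ratio was 0.10, which the scalings above would bring below 0, and within those with Xist reads it was 0.54. Hsp90b1, which encodes the ER Hsp90 also called GRP94, had 736 and 613 CPM (log2 ratio -0.26), with heavily overlapping cells (41.8% of pairs).

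The balance of the cytosolic Hsp90 genes inside single cells differed accordingly. Per kilobase of exon, the log2 ratio of Hsp90aa1 over Hsp90ab1 ran from -1.06 through a median of 0.36 to 3.19 in OHCs, and Hsp90aa1 was the higher gene in 24 of 32 cells. In cIHCs it ran from -2.25 through -0.95 to 0.63, and Hsp90aa1 was the higher gene in 3 of 67 cells. Among cells with Y-linked reads, the median was 0.43 in 24 OHCs and -0.45 in 12 cIHCs, with Hsp90aa1 higher in 18 and 1 of them. The cIHC had the larger ratio in 6.16% of all pairs and in 13.2% of pairs with Y-linked reads. This ratio does not depend on how cells are scaled to each other. Which gene is called the higher in a cell may depend on reads that Hsp90aa1 loses to shared sequence.

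**Figure D2:**
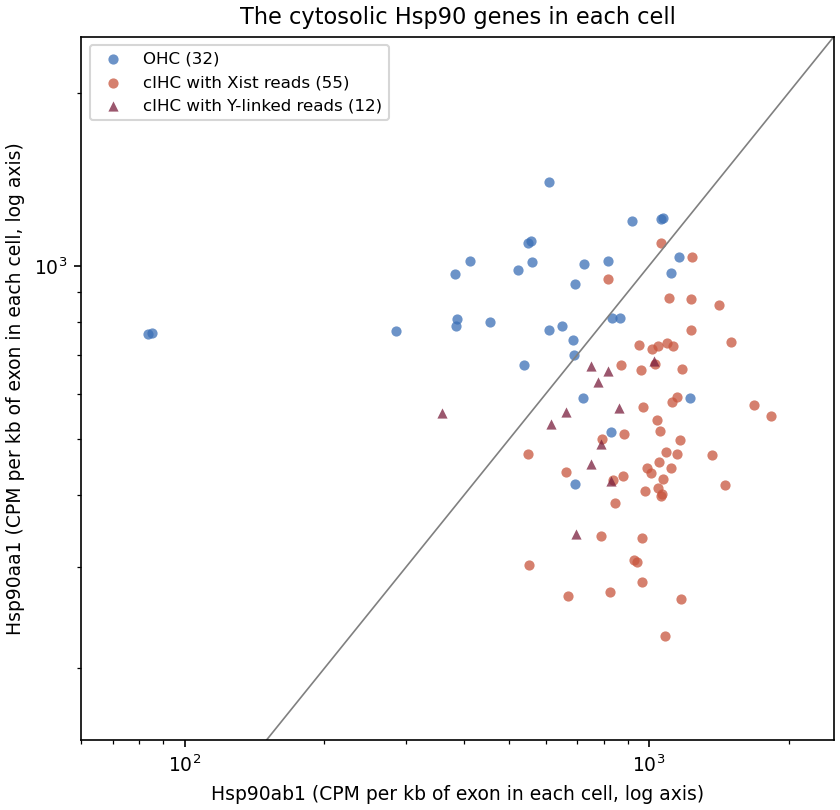
Level of Hsp90ab1 (horizontal) and Hsp90aa1 (vertical) in each cell, in CPM per kilobase of exon on log axes, for 32 OHCs, 55 cIHCs with Xist reads and 12 cIHCs with Y-linked reads; the line marks equal levels. Most OHCs lie above the line (24 of 32), and 3 of 67 cIHCs do.

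Hspa8 encodes Hsc70, the constitutive Hsp70 that also strips clathrin from vesicles. It stood at 2294 CPM in OHCs and 3692 CPM in cIHCs (log2 ratio 0.69). Single OHCs ran from 1289 through 2145 to 3988 CPM and single cIHCs from 949 through 3433 to 7294 CPM, and the cIHC was higher in 81.6% of pairs. This difference was not seen among cells with Y-linked reads, where 24 OHCs pooled to 2294 CPM and 12 cIHCs to 2221 CPM (log2 ratio -0.05). The 55 cIHCs with Xist reads pooled to 3948 CPM, against 2229 CPM in the 4 OHCs with Xist reads (log2 ratio 0.83). Hspa8 shares 39.4% of its 50-base words with other genes, most with the processed copy Gm15459, which held 468 and 527 CPM; with these reads added the ratio was 0.61.

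Hspa2 differed little between the groups. Its pooled level was 971 CPM in OHCs and 893 CPM in cIHCs (log2 ratio -0.12), single cells ran from 99.5 through 885 to 2051 CPM and from 275 through 873 to 1887 CPM, and the cIHC was higher in 47.7% of pairs. Hspa4l, an Hsp110-type gene, had 621 and 466 CPM (log2 ratio -0.41); its single cells ran from 96.9 to 1590 CPM and from 13.5 to 1340 CPM and overlapped almost entirely. Hspa4, of the same type, had 124 and 110 CPM, and Hspa14, which works with the ribosome, 78.2 and 103 CPM.

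Hsph1, the main cytosolic Hsp110 and exchange factor of Hsp70, was the most abundant member past 2-fold. It stood at 210 CPM in OHCs and 453 CPM in cIHCs (log2 ratio 1.11, interval 1.09 to 1.12). Single OHCs ran from 0 through 175 to 864 CPM and single cIHCs from 23.8 through 450 to 1030 CPM, with the cIHC higher in 83.0% of pairs. The log2 ratio was 1.04 among cells with Y-linked reads and 1.27 among those with Xist reads, and it was under 2-fold with TMM (0.92) and with a median of ratios (0.91).

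The stress-inducible Hsp70 genes were scarce. Hspa1a stood at 8.61 and 9.40 CPM, with reads in 6 of 32 OHCs and 25 of 67 cIHCs, and Hspa1b at 26.4 and 23 CPM, with reads in 9 and 36. The median cell had 0 CPM of Hspa1a in both groups. Single cells reached 81.6 and 289 CPM for Hspa1a and 367 and 382 CPM for Hspa1b, so the few cells with many reads set the pooled level. The 2 genes are near copies, sharing 58.8% and 62.3% of their 50-base words, and the authors' counting may divide their reads arbitrarily; the sum was 35 CPM in OHCs and 32.4 CPM in cIHCs (log2 ratio -0.11). Across cells the 2 rows had a Spearman rho of 0.51 in 32 OHCs and 0.46 in 67 cIHCs, over shared sequence.

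Hspa12a, an Hsp70 relative of nervous tissue, had 4.19 and 15.5 CPM (log2 ratio 1.89), but 1 OHC held 99.8% of its OHC reads. Hspa12b had no read in 32 OHCs, which allows a share of cells with reads of up to 9.38%, and reads in 2 cIHCs. Hspa1l, a testis gene, had 1.34 and 0.693 CPM, and Gm10501 covers 71.9% of its exons on the other strand.

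**Figure D3:**
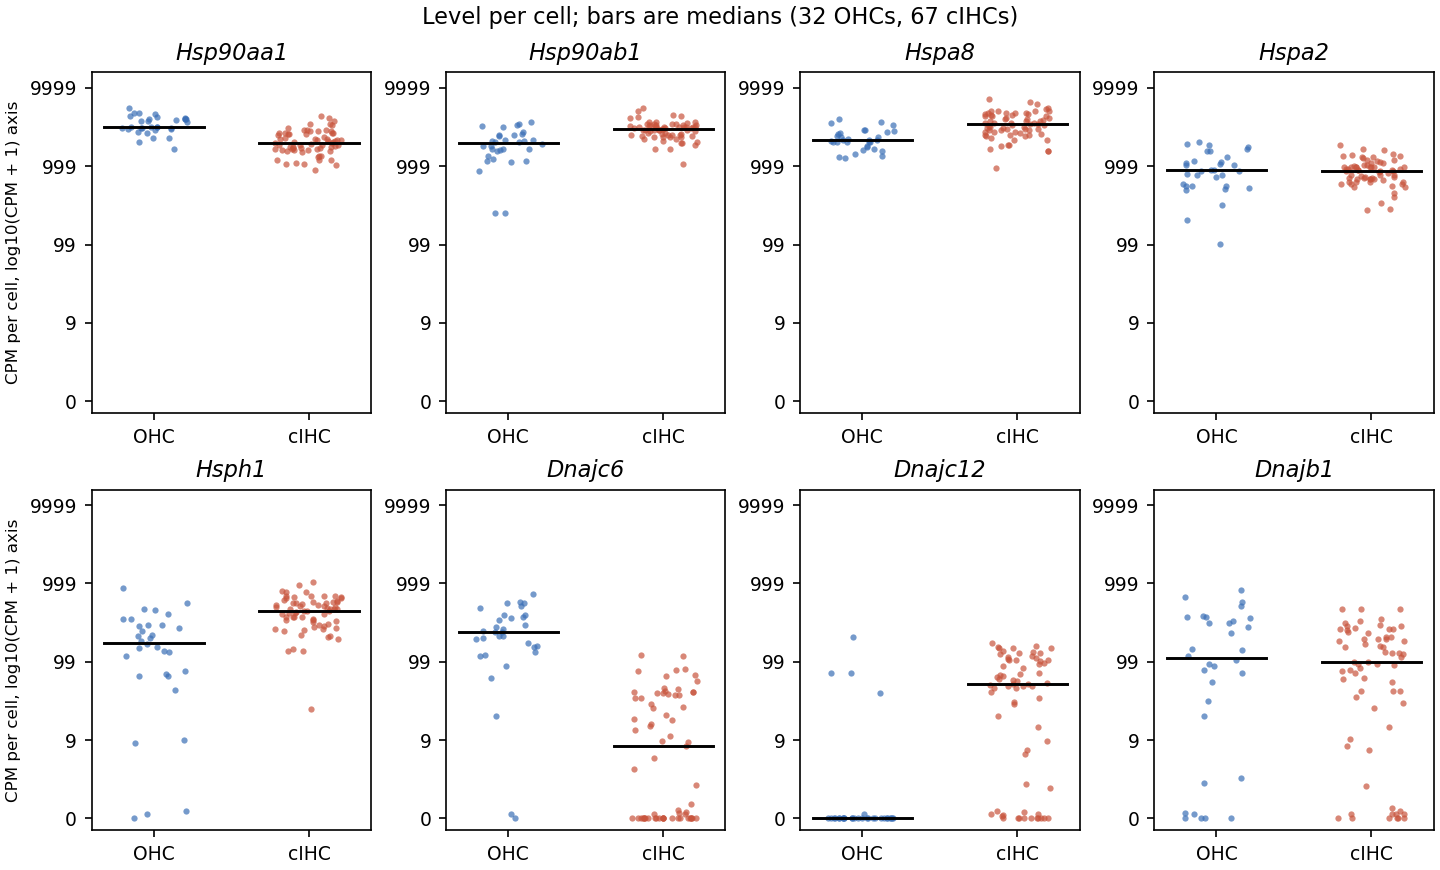
Level of 8 members in each of 32 OHCs and 67 cIHCs, on a log10(CPM + 1) axis labelled in CPM; horizontal bars are medians. Hsp90aa1 and Dnajc6 sit lower and Hsp90ab1, Hspa8, Hsph1 and Dnajc12 higher in cIHCs, while the points for Hspa2 and Dnajb1 overlap.

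The heat shock element, to which HSF1 binds, is a run of inverted GAA units. A run of 3 units (GAANNTTCNNGAA or its reverse complement TTCNNGAANNTTC, so that both strands were searched) was looked for in the 250 bases before each start site in RefSeq's promoter windows of GRCm38.p6. It occurred in 0.466% of 32851 windows, in 0.514% of genes with a window. Of the 73 members, 60 had a window, and 3 of them (5.00%) held the run: Dnajb6, Hspd1 and Hspe1. A run of 2 units (GAANNTTC or TTCNNGAA, each its own reverse complement and contained in the longer run) occurred in 12.8% of windows, in 14.5% of genes with a window and in 14 of the 60 members (23.3%). Hsp90aa1, Hsp90ab1 and Hspa8 had no window. Stretches around the first match are printed below on the gene's strand for members with unlike ratios: Dnajb6 holds a run of 3 and Hspe1 one that goes on to 4 units, Hsph1 was over 2-fold higher in cIHCs, Hspa1a stands for the inducible Hsp70 genes, Dnaja1 and Dnajb4 are J protein genes that were higher, and Hspb6 is the small heat shock protein that reached 10 CPM. Capitals mark the runs.
Hspe1 (chr1:55088053-55088082, plus strand): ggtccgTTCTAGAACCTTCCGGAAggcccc
Dnajb6 (chr5:29735843-29735872, plus strand): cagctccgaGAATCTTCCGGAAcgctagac
Hsph1 (chr5:149636351-149636380, minus strand): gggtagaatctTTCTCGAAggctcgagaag
Hspa1a (chr17:34972217-34972296, minus strand): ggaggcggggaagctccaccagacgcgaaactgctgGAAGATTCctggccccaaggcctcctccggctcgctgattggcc
Dnaja1 (chr4:40722333-40722362, plus strand): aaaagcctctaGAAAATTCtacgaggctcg
Dnajb4 (chr3:152193846-152193925, minus strand): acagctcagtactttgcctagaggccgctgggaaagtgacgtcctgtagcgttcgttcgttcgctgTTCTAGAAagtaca
Hspb6 (chr7:30553145-30553224, plus strand): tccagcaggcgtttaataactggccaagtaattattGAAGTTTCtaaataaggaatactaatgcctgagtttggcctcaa

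The runs lay at bases -89 to -72 from the start site for Hspe1, -46 to -34 for Dnajb6 and -104 to -97 for Hspa1a. The windows of Hspa1a and Hspa1b differed at 3 of 250 bases. A match describes the letters and does not show binding. The 3 members with a run of 3 or more units were Hspe1 (118 and 157 CPM, log2 ratio 0.42), Hspd1 (121 and 185 CPM, 0.61) and Dnajb6 (448 and 259 CPM, -0.79). Within cells with Y-linked reads these ratios were -0.78, 0.59 and -0.98. Within cells with Xist reads they were 1.65, -0.63 and -0.53. The part of the runs in the ratios was not tested.

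Of 13 members widely known as HSF1 targets, 11 reached 10 CPM. Hsph1 was past 2-fold higher and none was past 2-fold lower, against 26.3% and 14.3% of all genes. Of the 11, 7 lay above 0, also with either scaling, against 59.03% of all genes unscaled. The median log2 ratio of the 11 was 0.58, which is the value of Hsp90ab1, against 0.25 for all genes. The 4 below 0 were Hsp90aa1, Hspa4l, Dnajb1 and Hspa1b. Within cells with Xist reads, Dnaja1, Hspa1b, Hspa4l and Hspd1 had the opposite sign to that over all cells. Hspa1b, Hspa8 and Hspe1 did so within cells with Y-linked reads. Summed, the 13 came to 9616 CPM in OHCs (7488 to 13058 CPM in single cells) and 11073 CPM in cIHCs (6387 to 16501 CPM). Of the largest parts of this sum, the constitutive genes Hspa8 (2294 and 3692 CPM) and Hsp90ab1 (2001 and 2997 CPM) were higher in cIHCs. The stress-induced Hsp90aa1 (3471 and 2076 CPM) was lower. Hsf1 itself had 65.8 and 49.95 CPM and Hsf2 28.4 and 21.2 CPM (log2 ratios -0.40 and -0.42), Hsf5 had 11.1 and 19.2 CPM (0.79), and Hsf4 was at 0.0496 and 0 CPM. The summed HSF1 targets had a Spearman rho with the summed early genes of -0.09 across 32 OHCs and -0.37 across 67 cIHCs; both sums are shares of the same reads.

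Small heat shock proteins were nearly silent in these hair cells. Of the 7 genes with an alpha-crystallin domain, Hspb3 and Hspb9 had no read in any cell and Hspb2 and Hspb7 had reads in 2 cells each over both groups. Hspb1, which encodes Hsp27 and is the small heat shock protein most often studied after hair cell stress, had 2.14 and 0.518 CPM, and 1 OHC at 90.0 CPM held 99.8% of its OHC reads and so sets the log2 ratio of -2.05. Hspb8 had no read in OHCs and 2.31 CPM in cIHCs, with reads in 6 of 67 cells and 64.6% of them in 1 cell. Hspb6 was the only one to reach 10 CPM. It stood at 2.02 CPM in OHCs, all from 1 cell at 60.8 CPM, and at 23.2 CPM in cIHCs (log2 ratio 3.52), where 28 of 67 cells had reads, up to 112 CPM. After thinning every cell to 5770000 reads, Hspb6 had reads in 3.45% of 29 OHCs and 40.9% of 66 cIHCs. Cryab, a crystallin of the same superfamily outside the symbol rule, had 7.58 and 0.443 CPM, with reads in 7 OHCs and 8 cIHCs.

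The genes with an Hspb name but another function were more abundant. Hspbp1, an exchange factor of Hsp70, had 53.3 and 66.3 CPM, and Hspb11, an intraflagellar transport gene, 13.8 and 20.9 CPM. Hspbap1 stood at 0.417 CPM in OHCs (5 of 32 cells with reads, none at 10 CPM) and 13.2 CPM in cIHCs (36 of 67 cells with reads, 14 of them at 10 CPM or more). Its log2 ratio of 4.99 was 0.995, just under 2-fold, among cells with Y-linked reads, and the 12 cIHCs with such reads pooled to 1.10 CPM against 15.3 CPM in the other 55.

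The mitochondrial chaperones leaned one way by less than 2-fold. Hspd1 and Hspe1, the Hsp60 and Hsp10 that form the mitochondrial folding chamber and sit head to head in the genome, had 121 and 185 CPM (log2 ratio 0.61) and 118 and 157 CPM (0.42). Hspa9, the mitochondrial Hsp70 mortalin, had 131 and 157 CPM (0.26). The J proteins Dnaja3, Dnajc11, Dnajc15 and Dnajc19 ran from 0.22 for Dnajc19 to 0.92 for Dnajc15, a J protein of the import motor. Dnajc30 was under 10 CPM (7.61 and 6.80 CPM) and went the other way (-0.16). All 7 members at 10 CPM lay above 0 with every scaling tried, and 6 of them lay above the median of all genes. Of all genes, 59.03% lay above 0 unscaled. Dnajc19 stayed above 0 narrowly, since a median of ratios lowers every ratio by 0.20. Within cells with Xist reads Hspa9, Hspd1 and Dnaja3 lay below 0 (-0.98, -0.63 and -0.73), and within cells with Y-linked reads Hspe1, Dnajc11 and Dnajc19 did (-0.78, -0.01 and -0.50). Single cells spread widely: Hspd1 ran from 0 through 49.9 to 692 CPM in OHCs and from 0 through 173 to 446 CPM in cIHCs. Hspd1 shares 39.7% of its 50-base words with other genes, mostly pseudogenes.

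Among the DNAJA genes, the general J proteins of cytosolic Hsc70, Dnaja1 stood at 407 CPM in OHCs and 691 CPM in cIHCs (log2 ratio 0.76), with single cells from 0 through 331 to 1454 CPM and from 187 through 627 to 1332 CPM. The cIHC was higher in 81.3% of pairs; among cells with Xist reads the log2 ratio was -0.07. Dnaja2 had 154 and 238 CPM (0.63; -0.19 within cells with Xist reads). Dnaja4 had 82.0 and 51.4 CPM (-0.67), but 44% of its exons lie over Wdr61 on the other strand, and the strand setting of the counting was not given in the sources used here.

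The DNAJB genes divided. Dnajb6, a J protein that keeps polyglutamine and other aggregation-prone proteins soluble, had 448 and 259 CPM (log2 ratio -0.79), with reads in every cell, from 21.2 through 337 to 1287 CPM in OHCs and from 54.5 through 232 to 544 CPM in cIHCs. Dnajb1, the Hsp40 that heat induces, had 211 and 130 CPM (-0.70), yet its median cell stood at 110 and 97.0 CPM and the cIHC was higher in 43.9% of pairs; the highest OHC reached 831 CPM and the highest cIHC 474 CPM. Dnajb4 had 122 and 192 CPM (0.65) and Dnajb2, a neuronal J protein, 84.1 and 135 CPM (0.69). Within cells with Y-linked reads the log2 ratios of Dnajb4 and Dnajb2 were 1.17 and 0.03, and within those with Xist reads 2.86 and 0.47. Dnajb13, a sperm flagellar gene, had 7.64 CPM in 5 of 32 OHCs and 45.8 CPM in 40 of 67 cIHCs (log2 ratio 2.58); 11.2% of its exons overlap Ucp2 on the other strand.

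Dnajc6 had the lowest ratio of the 56 members at 10 CPM. It encodes auxilin, the J protein that brings Hsc70 to clathrin-coated vesicles so that the coat is removed. It stood at 276 CPM in OHCs (95% Poisson interval 274 to 279) and 19.6 CPM in cIHCs (19.2 to 19.99), a log2 ratio of -3.82 (interval -3.85 to -3.79). Single OHCs ran from 0 through 240 to 735 CPM, with reads in 31 of 32, and single cIHCs from 0 through 7.39 to 121 CPM, with reads in 43 of 67. The cIHC was higher in 6.2% of pairs, and the groups met only where a few OHCs were low. The log2 ratio was -2.81 within cells with Y-linked reads and -4.78 within those with Xist reads. No other gene overlaps Dnajc6 in the annotation and none shares a 50-base word with it. Dnajc13, the endosomal J protein RME-8 that also works with Hsc70 and clathrin, went the other way, with 17.4 CPM in OHCs and 49.96 CPM in cIHCs (log2 ratio 1.52; 0.25 within cells with Xist reads).

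Dnajc12, a co-chaperone for the aromatic amino acid hydroxylases, was the reverse case. It had reads in 5 of 32 OHCs (15.6%, Clopper-Pearson interval 5.27 to 32.8%) and in 57 of 67 cIHCs (85.1%, 74.3 to 92.6%). The median OHC had 0 CPM and the median cIHC 50.7 CPM, with highest cells at 208 and 173 CPM. The pooled levels of 11.1 and 58.1 CPM gave a log2 ratio of 2.39, and 3.32 once the highest cell per group was left out, since 1 OHC held 50.7% of the OHC reads. In thinned cells the shares were 17.2% and 81.8%, and at a level of 10 CPM they were 12.5% and 68.7%. The log2 ratio was 2.38 among cells with Y-linked reads. No other gene overlaps Dnajc12 in the annotation.

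Dnajc7, which joins Hsp70 to Hsp90 through its TPR domains, had 102 and 234 CPM (log2 ratio 1.19), with single cells from 0 through 54.9 to 521 CPM and from 0 through 206 to 488 CPM, and the cIHC was higher in 79.4% of pairs. A median of ratios took it to 0.99 and the cells with Y-linked reads to 0.86, just under 2-fold. Dnajc9, a J protein that is also a histone chaperone, had 30.5 and 98.2 CPM (log2 ratio 1.69, and 0.90 within cells with Xist reads); the median OHC had 0 and the median cIHC 86.6 CPM.

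The other DNAJC genes past 2-fold were under 50 CPM and lay at 0 in the median OHC. Dnajc24, of the diphthamide pathway, had 10.6 and 28.7 CPM, Dnajc25 8.42 and 23.9 CPM, and Dnajc27, a small GTPase with a J domain, 6.36 and 26.4 CPM. Within cells with Xist reads the log2 ratios of Dnajc24 and Dnajc25 turned to -0.14 and -0.53. Dnajc21, a ribosome assembly factor, had 24.4 CPM in 11 OHCs with reads and 8.24 CPM in 26 cIHCs with reads (log2 ratio -1.56), and Dnajc28 had 10.7 and 3.45 CPM, with 68.3% of its OHC reads in 1 cell; its log2 ratio went from -1.63 to -0.73 once the highest cell per group was left out. The DNAJC genes at 10 CPM that were not past 2-fold were Dnajc1, Dnajc2, Dnajc3, Dnajc4, Dnajc8, Dnajc10, Dnajc11, Dnajc14, Dnajc15, Dnajc16, Dnajc17, Dnajc18 and Dnajc19. Their log2 ratios ran from -0.76 for Dnajc17 to 0.92 for Dnajc15. Within cells with Y-linked reads Dnajc17 stood at -2.03 and Dnajc16, at -0.01 over all cells, stood at -1.48. Within cells with Xist reads, of which 4 are OHCs, Dnajc17 and Dnajc16 stood at -1.38 and -1.25. No other gene of this list was past 2-fold on the same side within both sets.

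In the ER, 10 members serve the folding of secreted and membrane proteins. All 10 reached 10 CPM; Hspa13 and Dnajb9 were past 2-fold higher, none was past 2-fold lower, and the median log2 ratio was 0.24, that of all genes. Dnajb9, the BiP co-chaperone ERdj4, had 43.1 and 105 CPM (log2 ratio 1.28, and 0.39 within cells with Xist reads), with reads in 16 of 32 OHCs and 65 of 67 cIHCs and a median cell at 0.141 and 84.1 CPM. Hspa13, a microsomal Hsp70, had 7.28 and 27.4 CPM in 4 of 32 and 35 of 67 cells (1.91). Dnajc10, the J protein ERdj5 with disulfide reductase domains, had 28 and 46.4 CPM (0.73), and Dnajb14 and Dnajb12, of the ER membrane, had 87.2 and 117 CPM (0.42) and 28.9 and 30.3 CPM (0.07, below 0 with either scaling). Dnajb11 (248 and 220 CPM), Dnajc3 (107 and 93.9 CPM) and Dnajc1 (43.6 and 39.4 CPM) lay between -0.19 and -0.15.

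Hspa5 encodes BiP, the main Hsp70 of the ER. It stood at 676 CPM in OHCs and 978 CPM in cIHCs (log2 ratio 0.53), with single cells from 232 through 570 to 1850 CPM and from 50.7 through 831 to 3795 CPM. The cIHC was higher in 67.8% of pairs. Levels differed more inside the cIHCs than between the groups. The 12 cIHCs with Y-linked reads pooled to 2097 CPM (791 through 1982 to 3795 CPM), and the 55 with Xist reads to 783 CPM (50.7 through 715 to 1578 CPM). The former was higher in 89.8% of pairs drawn from the 2 sets. In OHCs the order was reversed: the 24 cells with Y-linked reads pooled to 588 CPM and the 4 with Xist reads to 1101 CPM. The log2 ratio of cIHC over OHC was therefore 1.83 within cells with Y-linked reads and -0.49 within cells with Xist reads.

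Across the members, 55 reached 10 CPM in 1 or both of these sets of cIHCs. Of these, 4 (7.27%) were at least 2-fold higher in the 12 cells with Y-linked reads, against 7.82% of all 9722 genes, and 6 (10.9%) were at least 2-fold lower, against 12.7%. The 4 were Hspa5, Hspa13, Hspa12a and Dnajc6, and the 6 were Hspe1, Hspa1a, Hspbap1, Dnajc4, Dnajc16 and Dnajc17. Hspe1 stood at 75.8 CPM in the cells with Y-linked reads and 172 CPM in those with Xist reads, and Dnajc6 at 37.5 and 16.5 CPM. Hsp90b1, the other main ER chaperone, stood at 524 and 629 CPM, the other way round from Hspa5, although the Spearman rho of the genes was 0.36 across all 67 cIHCs and 0.30 across 32 OHCs. The within-cell log2 ratio of Hspa5 over Hsp90b1, per kilobase of exon, was above 0 in 12 of 12 cIHCs with Y-linked reads (median 1.88) and in 12 of 24 OHCs with such reads (median -0.01). Of 14 genes of the unfolded protein response at 10 CPM, Herpud1 and Ddit3 were past 2-fold higher in these 12 cells. Herpud1, an ER degradation factor, had 729 and 146 CPM, and Ddit3, which encodes the factor CHOP, 253 and 118 CPM. Of the 7 early genes, Atf3 (488 and 71.6 CPM) and Fosb (17.1 and 5.41 CPM) were past 2-fold higher in the 12 cells, and Fos (100.2 and 228 CPM) and Ier2 (36 and 102 CPM) past 2-fold lower. The labels name no animal or preparation for these 12 cells, and the part of what they share was not tested.

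**Figure D4:**
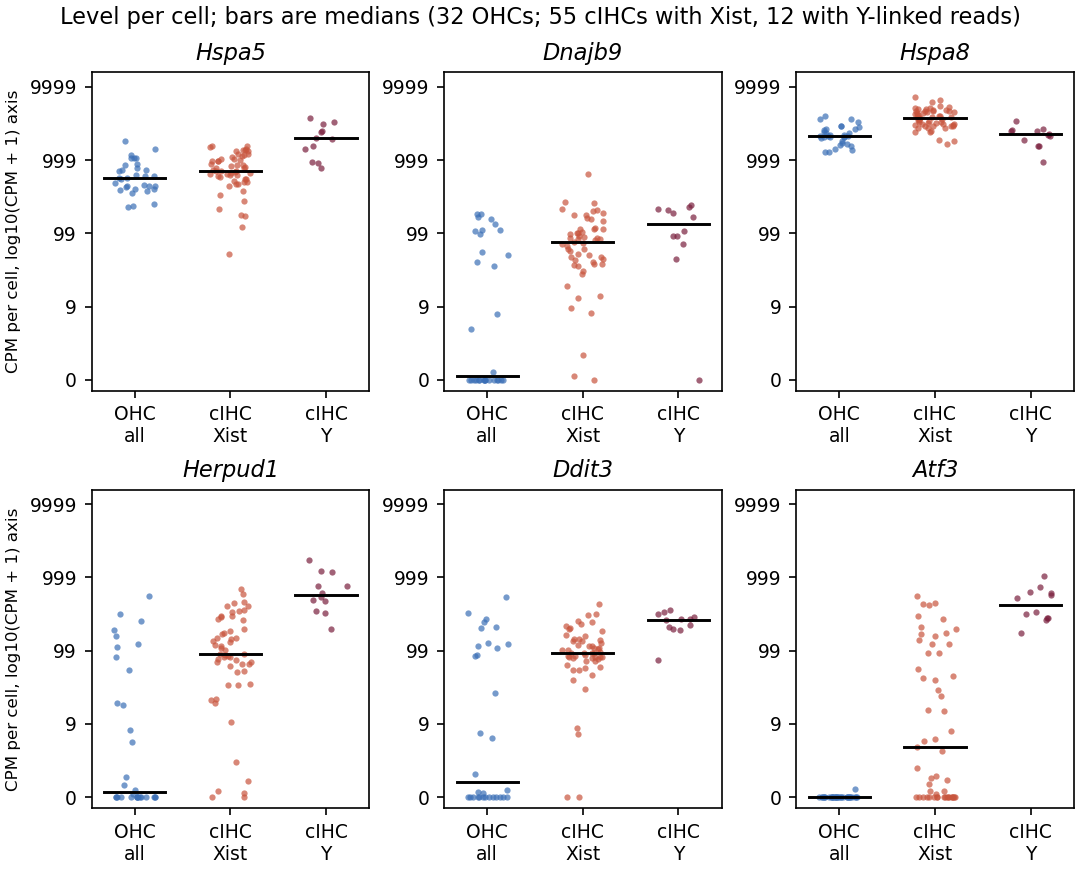
Level of 3 members (Hspa5, Dnajb9, Hspa8) and of Herpud1, Ddit3 and Atf3 in each cell, on a log10(CPM + 1) axis labelled in CPM, for all 32 OHCs, 55 cIHCs with Xist reads and 12 cIHCs with Y-linked reads; bars are medians. The medians of Hspa5, Dnajb9, Herpud1, Ddit3 and Atf3 are highest in the 12 cells, and that of Hspa8 is highest in the 55. The highest single cells for Dnajb9 and Ddit3 lie outside the 12.

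The ER stress element, through which ATF6 and NF-Y act, reads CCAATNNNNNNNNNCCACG (reverse complement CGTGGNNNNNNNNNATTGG, searched on both strands). It occurred in 0.113% of the same RefSeq windows, in 0.13% of genes with a window and in 3 of the 60 members with a window (5.00%), namely Hspa5, Hsp90b1 and Dnajc3. They are shown because they share the element. Their log2 ratios were 0.53, -0.26 and -0.19. Within cells with Y-linked reads the ratios were 1.83, -0.35 and 0.01, and within cells with Xist reads -0.49, -0.45 and -0.97. The part of the element in these ratios was not tested. Capitals mark the element on the gene's strand.
Hspa5 (chr2:34772019-34772048, plus strand): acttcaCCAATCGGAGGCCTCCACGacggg
Hsp90b1 (chr10:86705608-86705687, minus strand): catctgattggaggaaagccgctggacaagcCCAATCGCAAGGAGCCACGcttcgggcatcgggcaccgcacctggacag
Dnajc3 (chr14:118937796-118937875, plus strand): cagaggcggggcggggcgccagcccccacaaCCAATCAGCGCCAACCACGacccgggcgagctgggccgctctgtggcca

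The element lay at bases -65 to -47 from the start site of Hspa5 and at -105 to -87 of Dnajc3. Dnajb9 and Dnajb11 hold no such letters in their windows, which says nothing about the factor.

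Of 15 genes of the unfolded protein response outside the members, 14 reached 10 CPM in the comparison of cIHCs with OHCs. Herpud1 (58 and 232 CPM, log2 ratio 2.00) and Ern1, the sensor IRE1 (9.10 and 23.1 CPM, 1.34), were past 2-fold higher, and Atf6, another sensor (119 and 46.9 CPM, -1.34), was past 2-fold lower. The median log2 ratio of the 14 was 0.45. Within cells with Xist reads Herpud1 stood at 0.28 and Ern1 at -0.85, while Atf6 stood at -1.98.

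The partners of Hsp70 and Hsp90 lay on both sides of 0. Of 13 co-chaperones at 10 CPM, Ppid, the cyclophilin that binds Hsp90, was past 2-fold higher (67.5 and 192 CPM, log2 ratio 1.5), and St13, the Hsp70-interacting protein Hip, past 2-fold lower (465 and 214 CPM, -1.12). St13 had reads in every cell, from 30.0 through 367 to 1346 CPM in OHCs and from 27.8 through 192 to 689 CPM in cIHCs, and the cIHC was higher in 22.7% of pairs. None of 10 exchange factors of Hsp70 was past 2-fold, with log2 ratios from -0.74 for Bag3 to 0.80 for Grpel1. The 8 subunits of the cytosolic chaperonin TRiC, which folds actin and tubulin, all lay above 0 and none past 2-fold (median 0.43, from 0.06 for Cct4 to 0.84 for Cct3). With either scaling 6 of 8 lay above 0. Of all genes, 59.03% lay above 0 unscaled. In prefoldin, which hands clients to TRiC, Pfdn6 was past 2-fold higher (27.5 and 68.2 CPM, 1.31), and the other 5 subunits ran from -0.16 to 0.60. Of 6 other mitochondrial chaperones and proteases, Lonp1 was past 2-fold higher (26.7 and 62.1 CPM, 1.22), though at -0.19 within cells with Xist reads.

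**Figure D5:**
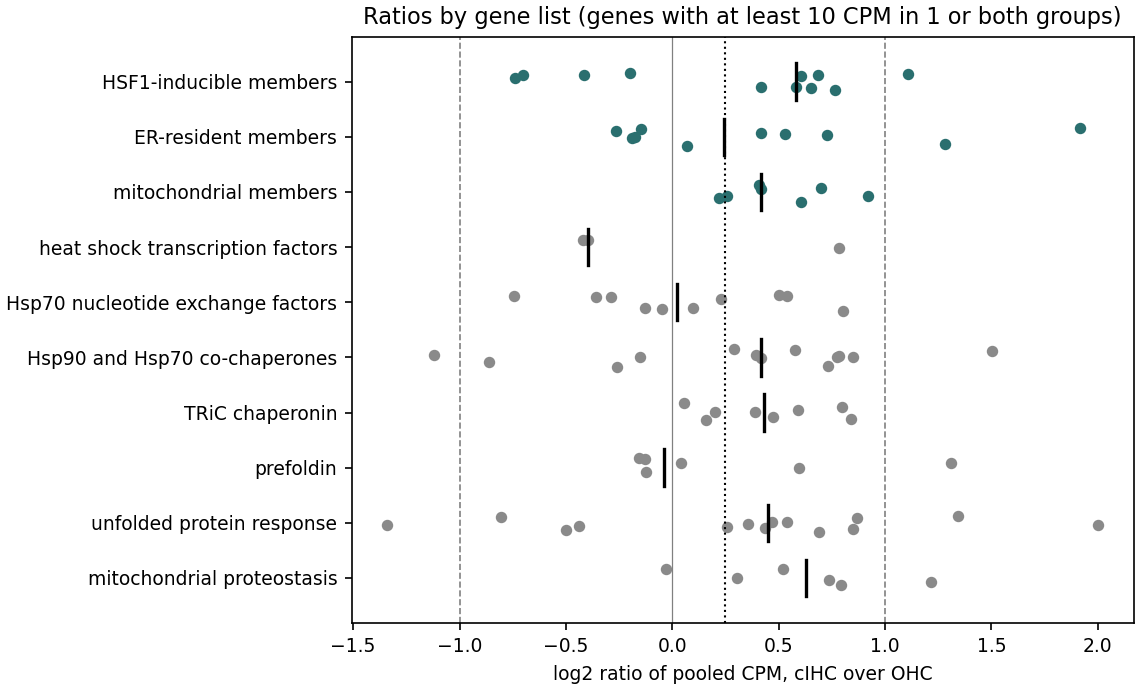
Log2 ratio of pooled CPM, cIHC over OHC, for each gene that reached 10 CPM in 1 or both groups (points), by list; teal lists hold members, grey lists hold other genes of the pathway. Black bars are list medians, dashed lines a 2-fold difference and the dotted line the median of all genes (0.25); most points of each of the 10 lists drawn lie between the dashed lines.

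From cell to cell, pairs of members had correlations of both signs. For the 8 members with reads in all 99 cells, Dnajb6, Hsp90aa1, Hsp90ab1, Hsp90b1, Hspa2, Hspa4l, Hspa5 and Hspa8, the median of 28 pairwise Spearman correlations was 0.01 in 32 OHCs (from -0.49 for Dnajb6 and Hsp90ab1 to 0.32 for Hspa2 and Hspa8). In 67 cIHCs the median was 0.09 (from -0.45 for Hspa5 and Hspa8 to 0.37 for Hsp90aa1 and Hspa4l). Hsp90aa1 and Hspa8, both HSF1 targets, had a rho of -0.03 in OHCs and -0.38 in cIHCs. The levels compared are shares of 1 library per cell. In cIHCs, Hsp90aa1 also had a rho of -0.40 and Hspa8 of 0.44 with the number of genes detected, and the part of that number in the correlations was not tested.

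The remaining members were at or near 0. The 17 under 10 CPM in both groups included Dnajb3, Dnajb5, Dnajb7, Dnajb8, Dnajc5g, Dnajc22, Dnajc30, Hspa1a, Hspa1l, Hspa12b, Hspb1, Hspb2, Hspb3, Hspb7, Hspb8 and Hspb9. Dnajb8, Dnajc22, Hspb3 and Hspb9 had no read, which allows a share of cells with reads of up to 9.38% in OHCs and 4.48% in cIHCs. Dnajb7 and Dnajb5 show how single cells can set such values: 1 OHC held all OHC reads of Dnajb7 and 99.1% of those of Dnajb5.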

How the data were processed

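Reads were counted per gene in 99 cells. The authors deposited whole-number counts, 1 column per cell; the submitters' processing notes name HISAT2 2.2.1, StringTie 2.2.1, featureCounts 2.0.1 and the build mm10, with no role or order. Annotation, strand setting and treatment of reads that map to several places were not given in the sources used here. Per the labels' protocols, picked cells went into the Smart-Seq HT kit without molecular identifiers, so reads are not independent molecules. The shared protocol text mentions endogenous IHCs and iOHCs as the picked cells; the titles name neither and were followed. The 17 OHCs of an earlier study that the design text mentions were not analysed here.

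All 99 columns matched 1 title each, 0 columns were left over, 0 were identical and no cell or doublet was filtered out, since cells were picked singly. Counts were summed per group (242054710 reads in OHCs, 544012348 in cIHCs) and scaled to CPM over each group. The log2 ratio is cIHC over OHC, with sums under 3 counts set to 3 and no ratio where both are at or under it. Intervals at 95% are exact Poisson, exact conditional binomial and Clopper-Pearson, and the limit for 0 of n cells is 3 of n. In the share of pairs, ties count 50%. Genes at 10 CPM or more in 1 or both groups and past 2-fold were called. Tools were Python 3.11.15, numpy 2.4.6, pandas 2.3.3, scipy 1.17.1, matplotlib 3.10.9, R 4.3.3 and edgeR 4.0.16, the last for TMM factors only. The ratio step was tested on simulated data.

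Genes named are the called members, the 10 members with the highest CPM per kilobase of exon, the HSF1-inducible and ER-resident members, and up to 4 called genes of each other list. Other names were chosen after their values were seen. The values of 1 member under 10 CPM are not reported here. Members and lists were chosen with earlier results of these data known. Exon lengths, overlaps and shared 50-base words came from GENCODE M21 (GRCm38), where 96.4% of all symbols and 72 of the 73 members were found; 28 of these overlap another gene; promoter windows came from RefSeq. Alternatives were means or medians over cells in place of sums, dropping each gene's highest cell per group, TMM, a median of ratios, totals without mitochondrial genes, other level minimums, only cells with Y-linked or with Xist reads, leaving out the 25% of cells with the fewest genes, thinned cells and a level of 10 CPM for shares, and near-copies added. Leaving out the 12 cIHCs with Y-linked reads and adding pseudogene counts were chosen after seeing the data.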

Additional observations from a re-analysis of the deposited data

How the results depend on the processing

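No paired analysis was possible because the labels tie a cell's title number to no animal or batch, and no test was made. The count of members at least 2-fold higher, 14 of 56 against 26.3% of all genes, was 5 of 33 with a minimum of 50 CPM (20.5% of all genes) and between 11 and 18 otherwise, while the share of all genes went up to 44.6%. For medians over cells it was 11 of 32, of which 3 are among the 14, and with only cells with Xist reads 18 of 56 (40.7% of all genes), of which 9 are. The count of members at least 2-fold lower, 3, was 1 for medians over cells and with a minimum of 50 CPM, 5 with only cells with Y-linked reads and with only cells with Xist reads (3 and 2 of them among the original 3), and 6 with no level minimum. The median log2 ratio of the members, 0.48 (0.25 for all genes), was 0.46 for means over cells (0.23), 0.57 for medians over cells (0.73), 0.58 without the highest cell of each gene (0.50), 0.28 with TMM (0.03), 0.27 with a median of ratios (0.02), 0.43 with totals without mitochondrial genes (0.20), 0.25 with only cells with Y-linked reads (0.17), 0.36 with only cells with Xist reads (0.41), 0.42 with no level minimum (0.56) and 0.41 with a minimum of 50 CPM (0.19). The members' median thus lay below that of all genes for medians over cells, with Xist cells and with no level minimum. Among named genes past 2-fold, the sign turned within cells with Xist reads, of which only 4 are OHCs, for Dnajc24 (-0.14), Dnajc25 (-0.53), Dnajc28 (4.50), Hspb1 (2.55), Ern1 (-0.85), Lonp1 (-0.19) and Fosb (5.70), without the highest cell of each gene for Hspb1 (3.48), and without the 25% of cells with the fewest genes for Fosb (1.53). Few OHC reads stand behind some of these: 4 for Dnajc28, 0 for Hspb1 and 2 for Fosb within cells with Xist reads, with counting intervals of 3.14 to 6.38, from 2.24 up and 4.43 to 9.33, and 1 for Hspb1 without the highest cell, with 2.54 to 10.38. The cause was not tested in the others. Counting smaller ratios too, 36 of 482 ratios of named genes under alternatives turned, in 21 genes. Of the 56 tested members, 29 kept their sign in each alternative that gave a value, 16 of them with a value in all 10; the sign turned for 3 members with medians over cells, 3 without the highest cell (Dnajc14, Dnajc16 and Hspa1b), 1 with TMM or a median of ratios (Dnajb12), 4 without the cells with the fewest genes and 2 without the cIHCs with Y-linked reads. Of the 17 called members, 8 stayed past 2-fold in each alternative that gave a value. Of shares of cells, 11 moved outside their Clopper-Pearson interval and 57 did not. Depth limits genes under 10 CPM, where 1 or 2 cells often hold most reads.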
